A study of Mus musculus with 30 samples.

Results

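The cytosolic ribosomal protein genes encode the protein parts of the ribosomes that translate nuclear messenger RNA. Members were all genes whose mouse symbol is Rps or Rpl followed by digits and an optional a, x, y or l, together with Rplp0, Rplp1, Rplp2 and Rpsa, without pseudogene symbols and kinases, and with at least 100 counts summed over 30 libraries. Of 54532 features in the files, 90 had a matching symbol and 81 reached the minimum. They comprised 31 small-subunit genes, 43 large-subunit genes, 3 genes of the P-stalk and 4 paralogues of core genes (Rpl7l1, Rpl22l1, Rpl36al and Rps27l). The lowest member was Rpl27 with 114 counts, and the highest symbol left out was Rpl24 with 53 counts. The other symbols left out were Rpl10l, Rps12l1, Rpl39l, Rpl3l, Rps4l, Rps3a2, Rps6 and Rpl32l, with 0, 0, 3, 12, 16, 17, 28 and 40 counts. A filter on low counts, applied by group, kept 80 members for testing, all but Rpl27.

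Ribosomal proteins assemble with ribosomal RNA in the nucleolus into a small subunit, which decodes the messenger, and a large subunit, which joins amino acids. Most of their messengers start with a run of pyrimidines, the terminal oligopyrimidine (TOP) motif, through which growth signalling acts on their translation. Because the subunits need their proteins in fixed proportion, these genes are known for high and parallel expression in growing cells, tumours included. RAF and MEK, the kinases inhibited in this study, lie upstream of ERK in a pathway that promotes growth in melanoma.

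The tumours grew in C57BL/6 mice from YUMM1.7, a mouse melanoma line that carries mutant Braf. From this line 5 clones, isolated with the CaTCH barcode system, were used: 2646TN, 2646R, 14559TN, 14559R and 13TN, the last of which has the word Depleted in its titles. Untreated and RAFi/MEKi-treated tumours were taken from every clone, 3 in each of 10 groups, and all groups share the parental line, the mouse strain and the sort for live, strongly GFP-positive cells after a CD45 stain. The labels used here give no dose, time, mouse age or compound, and do not spell out TN or R. Each name stands for 1 clone, so a difference between clones is a difference between those 5 lines only. Each tumour has its own code, but the labels do not say how the tumours were raised, so p-values measure only the spread between these samples. In bulk samples, fewer cells of a type and less RNA per cell cannot be told apart.

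Libraries were made with a 3′ messenger RNA kit (QuantSeq) and held 3022801 to 5278453 counts, with a median of 4042893. Of the melanocyte markers, Tyr, Dct and Tyrp1 were at 0 in all 30 libraries, Mlana was at 0 in 29 and Pmel reached at most 1.81 CPM (counts scaled to a common library size). Sox10 had a median of 0.307 CPM and reached 51.8 CPM, and S100b had a median of 2.87 CPM and reached 11.7 CPM. Mitf ranged from 12.0 to 81.3 CPM. Ptprc, which encodes CD45, reached at most 6.80 CPM, and the lymphocyte genes Cd3g, Cd79a and Ms4a1 were at 0 in all 30. Among libraries of a group, 3 stood apart in several members and are named beside the results they touch. These were untreated replicate 1 of 2646R and the libraries numbered 3 of untreated and of treated 2646TN. Replicate numbers are names only and pair nothing.

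The promoters of 5 members that were lower under treatment in both 14559TN and 13TN are printed here to show windows with and without the motifs that were counted. Each window runs from 100 bases before to 20 bases within the annotated start, 5′ to 3′ on the coding strand (RefSeq, GRCm38.p6). Capitals mark matches to CTTTCC, a run of pyrimidines read on the coding strand, or to CCGGAAG, the core recognised by ETS factors such as GABP, read on both strands. Matches were counted anywhere in the window, so CTTTCC need not lie at the start of the messenger. In the Rpl4 window it lies before the annotated start. The motifs can overlap only by the letters CC or by 1 base.
Rpl13a (chr7:45128726-45128845, minus strand): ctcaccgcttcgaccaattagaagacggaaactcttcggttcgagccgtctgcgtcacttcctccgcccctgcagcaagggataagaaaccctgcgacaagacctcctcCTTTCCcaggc
Rpl38 (chr11:114668480-114668599, plus strand): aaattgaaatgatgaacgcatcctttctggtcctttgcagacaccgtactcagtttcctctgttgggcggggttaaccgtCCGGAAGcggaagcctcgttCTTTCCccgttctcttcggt
Rpl4 (chr9:64173287-64173406, plus strand): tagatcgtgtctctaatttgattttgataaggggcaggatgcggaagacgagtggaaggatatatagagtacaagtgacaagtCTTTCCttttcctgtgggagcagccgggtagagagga
Rps18 (chr17:33955646-33955765, minus strand): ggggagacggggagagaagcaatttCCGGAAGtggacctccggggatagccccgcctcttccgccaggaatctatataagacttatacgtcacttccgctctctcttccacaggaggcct
Rps2 (chr17:24719963-24720082, plus strand): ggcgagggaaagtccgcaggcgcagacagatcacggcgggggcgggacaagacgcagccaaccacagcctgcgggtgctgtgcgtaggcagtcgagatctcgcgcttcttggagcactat
CTTTCC was found anywhere in the window in 15 of the 59 members with an entry, or 25.4%, against 6.49% of 27025 genes, which is not a share of messengers with a TOP start. CCGGAAG was found in 17 of the 59, or 28.8%, against 6.63%. The 27025 genes are all genes with an entry, expressed here or not, and a gene was counted if any of its windows matched. No share over the tested genes alone is given. The E-box CACGTG, which reads alike on both strands, was in 2 members, or 3.39%, against 4.33% of all genes, and TATAAA, read on the coding strand, was in 3, or 5.08%, against 4.93%. The Rps2 window holds none of these letters, which says nothing about any factor, and 22 members had no entry in the table.

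Counts were spread unevenly over the members. Rps20, a small-subunit protein, had 264512 counts, or 8.01% of all member counts, followed by Rpl37 with 6.59% and Rpl4 with 5.99%, and the 9 most counted members together held 50.2%. Counts of a 3′ kit are not divided by length, and they depend on how many reads could be assigned to 1 gene. Per the file headers reads that mapped to several places or to several genes were left out, and ribosomal protein genes have many processed copies in the mouse genome. Of the 81 members, 13 had no 50-base stretch in the last 200 bases of their transcripts that also occurred in a transcript of another gene, and these had a median of 37546 counts. The 68 members with such stretches had a median of 6958 counts, and the 36 that shared at least 50% of them had a median of 4399. Over the 81 members Spearman's rho between counts and the shared percentage was −0.44, given as a description over genes that share libraries and annotation.

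Single genes could depart from that relation. Rps6, the substrate of the S6 kinases, had 72.2% of its 3′ stretches shared and 28 counts in all, and Rpl24 had 68.9% shared. Rpl36a shared 100% with 586 counts and Rpl10, an ortholog of a late-joining large-subunit protein of yeast, shared 90.6% with 328 counts. Rps16 and Rps23 shared 0% and yet had 1058 and 1411 counts. The part of shared 3′ ends in the low counts was not tested, so values are given as levels of counted reads. The members Rpl6l and Rps3a3 are annotated as processed pseudogenes in GENCODE.

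**Figure D1:**
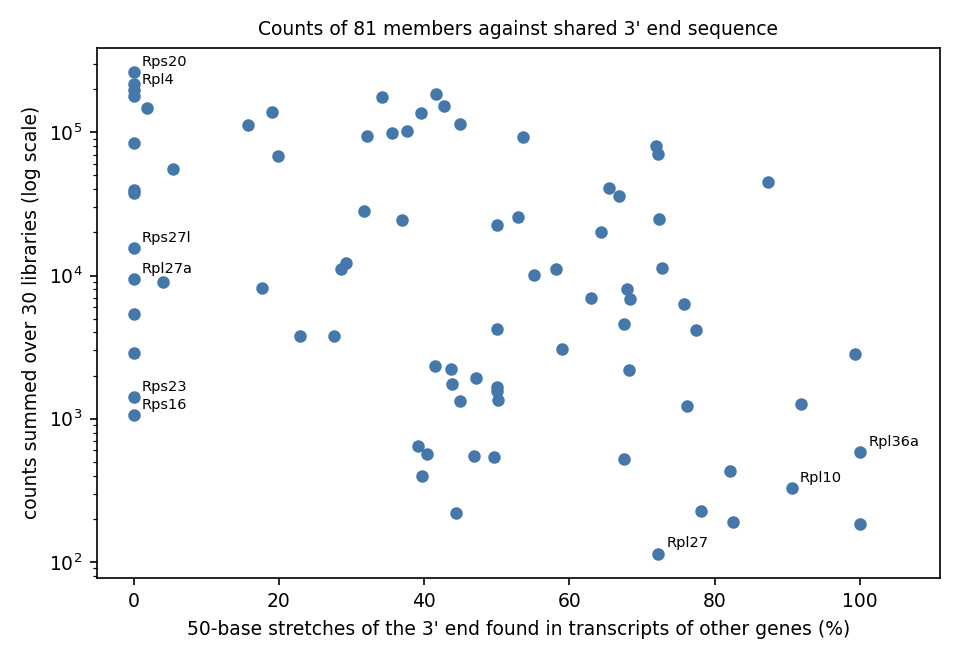
Counts of each of the 81 members summed over 30 libraries (log scale) against the percentage of its 50-base 3′ stretches that also occur in transcripts of other genes. The 13 points at 0% have a median of 37546 counts and the other 68 a median of 6958, and the points scatter widely at every percentage.

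The members took 1.74% to 3.94% of the counts of a library. In 14559TN their share was 2.55%, 2.91% and 2.59% in untreated tumours and 1.86%, 1.74% and 1.82% in treated ones. For 13TN the shares were 2.88%, 2.62% and 2.71% untreated and 1.89%, 1.91% and 1.90% treated. All treated tumours of these 2 clones lay below all of their untreated tumours. In 2646R the shares were 3.94%, 3.13% and 3.81% untreated and 2.78%, 2.87% and 2.85% treated, again with no overlap. Clone 2646TN had 3.19%, 2.96% and 3.13% untreated and 2.35%, 2.84% and 2.89% treated, a smaller gap without overlap. Clone 14559R overlapped, at 3.04%, 3.07% and 2.86% untreated and 2.65%, 2.69% and 3.19% treated. These shares are summed levels and were not tested.

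**Figure D2:**
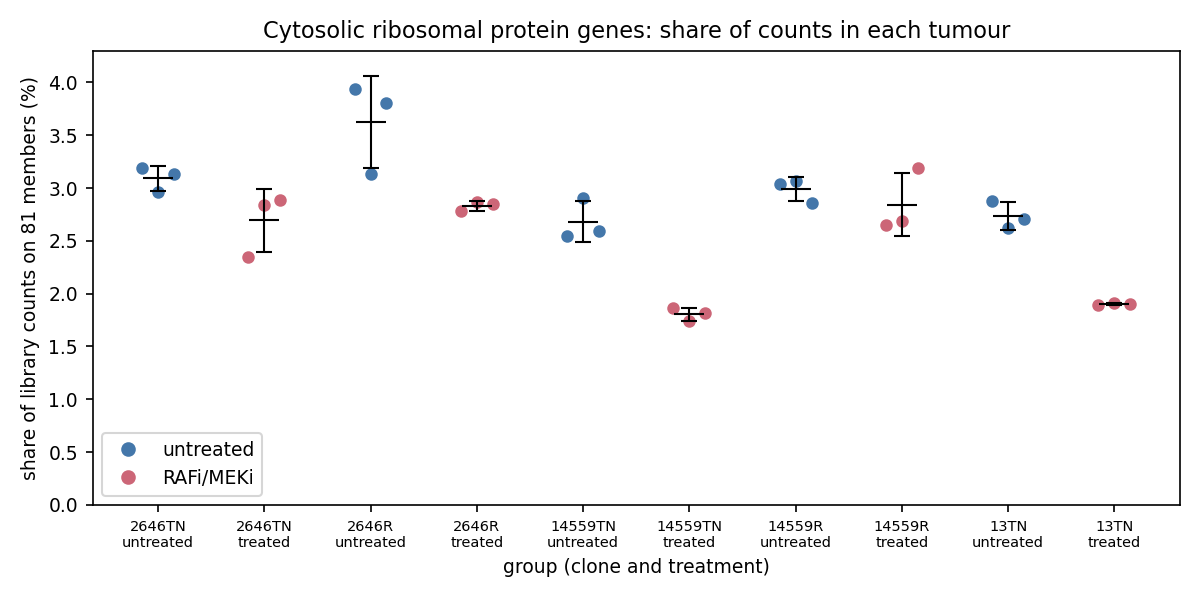
Percentage of each library's counts that fell on the 81 members, one point per tumour, by clone and treatment. The treated tumours of 14559TN (1.74% to 1.86%) and 13TN (1.89% to 1.91%) lie lowest, and the groups of 14559R overlap.

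Ribosomal protein transcripts were lower in treated than in untreated tumours of 14559TN, 13TN and 2646R. In 14559TN, 47 of 80 tested members fell and 0 rose, with a median log2 fold change (treated minus untreated) of −0.69, where 16% of all 13286 tested genes fell, 12.4% rose and the median of all genes was 0.00. In 13TN, 43 of 80 fell and 0 rose, with a median of −0.56, where 17.4% of all genes fell and 13.6% rose. In 2646R, 21 of 80 fell and 0 rose, with a median of −0.35, where 10.2% of all genes fell and 9.7% rose. The fallen members made up 58.8%, 53.8% and 26.2% of the tested ones in these clones. Calls were made with edgeR's quasi-likelihood test on counts with p-values adjusted by Benjamini and Hochberg's method across the whole table and a threshold of 0.05. Leaving out treated replicate 3 of 13TN left 26 calls there, and the calls of 2646R were 3, 5 and 10 without its untreated replicate 1, treated replicate 2 and treated replicate 1.

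No member was called in 2646TN or 14559R. In 2646TN the median was −0.13, with 0 members called by edgeR where 2.24% of all genes fell and 1.69% rose, and 14 members had an unadjusted p under 0.05, while DESeq2 called 1. In 14559R the median was −0.04, with 0 members called where 0.0527% of all genes fell and 0.143% rose, and 2 members had an unadjusted p under 0.05, while DESeq2 called 0. Of the 80 tested members, 54 had a negative value in 2646TN and 46 in 14559R, against 79 in 14559TN, 72 in 13TN and 67 in 2646R. The shares of all genes given here are for adjusted p-values. The counts by unadjusted p and by sign have no such share beside them and describe the members only.

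**Figure D3:**
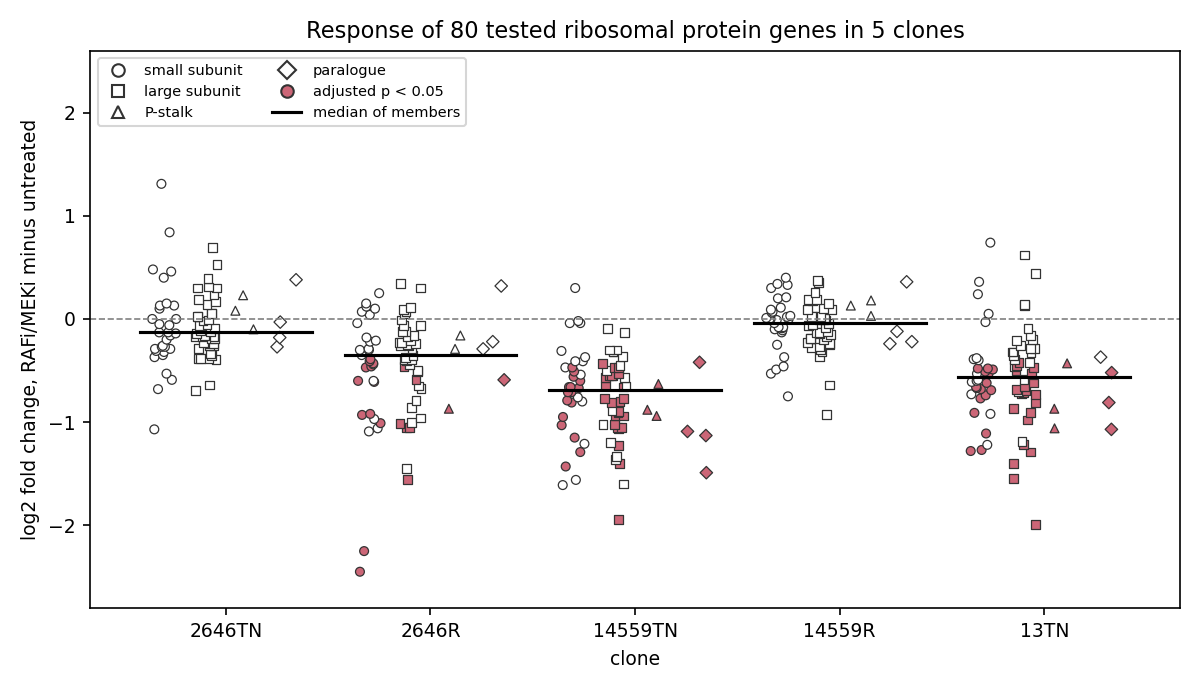
Log2 fold change (treated minus untreated) of each of the 80 tested members in the 5 clones, one point per gene. Medians are −0.13 in 2646TN, −0.35 in 2646R, −0.69 in 14559TN, −0.04 in 14559R and −0.56 in 13TN, and members called lower are found in 2646R, 14559TN and 13TN.

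The falls took in both subunits. In 14559TN, 16 of 31 small-subunit genes, 24 of 42 tested large-subunit genes, 3 of 3 P-stalk genes and 4 of 4 paralogues fell. In 13TN the numbers were 16, 21, 3 and 3, and in 2646R they were 12, 7, 1 and 1. Among the 34 members with a mean of at least 100 CPM, 29 fell in 14559TN, 29 in 13TN and 15 in 2646R, and all 34 had a negative value in each of these 3 clones. Among the 46 tested members under 100 CPM, 18, 14 and 6 fell. Of the 13 members with no shared 3′ stretch, 10 fell in 14559TN, 7 in 13TN and 4 in 2646R. Levels are CPM on library sizes scaled by TMM factors.

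The P-stalk recruits elongation factors to the ribosome, and Rplp0 is the protein that anchors it to the large subunit. In 14559TN Rplp0 had 783.2, 843.5 and 820.9 CPM untreated and 516.5, 408.2 and 403.3 CPM treated. In 13TN it had 770.3, 921.0 and 996.5 CPM untreated and 462.3, 483.1 and 520.5 CPM treated. The groups of both clones were apart, with log2 fold changes of −0.88 ± 0.12 (SE, adjusted p = 1.04e-06) and −0.87 ± 0.12 (adjusted p = 9.16e-07) by edgeR, or 1.84-fold and 1.83-fold lower. In 2646TN Rplp0 stood at 807.5, 813.5 and 772.5 CPM untreated and 699.6, 769.0 and 766.0 CPM treated, and 14559R had 834.7, 891.5 and 829.2 CPM untreated and 854.0, 793.4 and 955.9 CPM treated. Neither was called, with log2 values of −0.10 and 0.03. In 2646R the levels were 1208.2, 956.2 and 958.0 CPM untreated and 914.3, 832.3 and 799.5 CPM treated, with a log2 value of −0.29 that did not pass the test.

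Rplp1 and Rplp2 are the acidic proteins that pair on that stalk. Rplp2 fell by 0.94 ± 0.22 on the log2 scale in 14559TN, from 219.0, 198.2 and 206.7 to 107.0, 108.0 and 110.5 CPM. In 13TN it fell by 1.06 ± 0.22, from 169.2, 239.1 and 324.3 to 110.0, 116.1 and 124.6 CPM. The groups were apart in both clones, although the untreated 13TN tumours covered a wide range. Rplp1 had smaller values, −0.63 ± 0.13 in 14559TN (adjusted p = 0.000502) and −0.43 ± 0.13 in 13TN (adjusted p = 0.0134), by edgeR. The 13TN call of Rplp1 was lost without untreated replicate 1, treated replicate 1 or treated replicate 3, with an adjusted p of up to 0.147. Rplp2 was also lower in 2646R, at −0.87 ± 0.22, a call lost without untreated replicate 1 (−0.58, adjusted p = 0.0776) or without treated replicate 2.

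Among small-subunit proteins, Rps2, which lies at the messenger entry of the subunit, had the strongest called change of any member with at least 20 CPM in 14559TN. It had 329.4, 294.1 and 335.1 CPM untreated and 76.1, 163.4 and 115.4 CPM treated there, a log2 fold change of −1.43 ± 0.33 (edgeR adjusted p = 0.00237). In 13TN it went from 263.9, 392.7 and 536.9 to 141.6, 184.9 and 169.2 CPM, at −1.27 ± 0.33 (edgeR adjusted p = 0.00515). The groups did not overlap in either clone, and the untreated 13TN tumours differed among themselves by more than the treated ones.

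Rpsa, the small-subunit protein also known as the laminin receptor, had 67.8, 90.3 and 83.2 CPM in untreated and 39.8, 33.0 and 35.7 CPM in treated 14559TN tumours. Its log2 value was −1.15 ± 0.23 (edgeR adjusted p = 0.000367) there and −0.77 ± 0.23 in 13TN. The 13TN call was lost without untreated replicate 1, treated replicate 1 or treated replicate 3, with an adjusted p of up to 0.168. Rps3, a protein of the messenger entry that also acts in DNA repair, fell by 0.71 ± 0.13 in 14559TN and by 0.74 ± 0.13 in 13TN. It also fell in 2646R, from 2103.6, 1453.3 and 1872.5 to 1162.6, 1258.2 and 1172.7 CPM, at −0.60 ± 0.13 (edgeR adjusted p = 0.00116). Rps3 was the only one of 11 named members called in 2646R that kept its call when each library was left out in turn, with values no weaker than −0.43 and adjusted p-values up to 0.0295.

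Rps26 and Rps19, both mutated in the inherited anaemia Diamond-Blackfan, fell in both clones. Rps26 changed by −0.81 ± 0.13 in 14559TN and −0.69 ± 0.13 in 13TN on the log2 scale, and Rps19 by −0.79 ± 0.19 and −0.62 ± 0.19. Rps19 had 723.3, 996.0 and 727.8 CPM untreated against 505.1, 409.2 and 500.7 CPM treated in 14559TN, and 687.8, 601.0 and 641.8 against 498.6, 328.9 and 425.0 CPM in 13TN. The groups were apart in both clones, and the 13TN call was lost without untreated replicate 1 or treated replicate 2, with an adjusted p of up to 0.106. In 14559R Rps19 also went lower, from 1259.5, 1201.9 and 942.8 to 622.0, 869.8 and 864.0 CPM, but its value of −0.53 ± 0.18 did not pass the test (edgeR adjusted p = 0.247). Rps14, known from the human 5q deletion syndrome, was called in 13TN at −0.48 ± 0.15, a call lost without untreated replicate 3, treated replicate 1 or treated replicate 2, with an adjusted p of up to 0.112. It was not called in 14559TN, at −0.31 ± 0.15.

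Among large-subunit proteins, Rpl13a, which in human cells also acts in a complex that silences messengers of inflammation, had the same value in both clones. It went from 190.1, 205.9 and 213.8 to 87.2, 67.7 and 77.1 CPM in 14559TN, and from 266.1, 261.9 and 248.6 to 101.7, 112.5 and 79.1 CPM in 13TN. The groups were far apart, with log2 fold changes of −1.40 ± 0.16 in each (edgeR adjusted p = 3.43e-08 and 1.79e-08), or 2.63-fold and 2.65-fold lower. Rpl17, a protein near the exit tunnel, fell by 1.23 ± 0.28 in 14559TN (edgeR adjusted p = 0.000906). Rpl38, which is needed for translation of Hox messengers in mouse embryos, had −1.05 ± 0.36 in 14559TN and −1.22 ± 0.36 in 13TN. In 14559TN it lost its call without untreated replicates 1 or 3 or treated replicates 1 or 3 (adjusted p up to 0.12) and in 13TN without untreated replicate 3 (adjusted p = 0.118).

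Rpl5, Rpl11 and Rpl23 bind Mdm2 and thereby connect the ribosome with p53. Rpl5 had 18.3, 15.7 and 20.7 CPM untreated and 9.09, 11.5 and 7.71 CPM treated in 14559TN, a log2 value of −0.94 ± 0.28 (edgeR adjusted p = 0.0102) that lost its call without untreated or treated replicate 3, with an adjusted p of up to 0.0705. Rpl5 did not pass the test in 13TN, at −0.46 ± 0.27, and Rpl11 passed in neither, at −0.57 and −0.21. Rpl23 was called in both, at −0.77 ± 0.27 and −0.73 ± 0.27. Its calls were lost in 5 of 6 single leave-outs in each clone, with adjusted p-values up to 0.132 in 14559TN and 0.225 in 13TN, and held only without treated replicate 2 of 14559TN and untreated replicate 1 of 13TN.

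The paralogues can be read against their core partners. Rpl22l1, a paralogue that Rpl22 represses in mouse cells, went from 196.7, 152.4 and 197.1 to 86.0, 100.3 and 63.4 CPM in 14559TN and from 197.9, 237.4 and 287.1 to 96.3, 127.0 and 120.9 CPM in 13TN. The groups were apart, at −1.13 ± 0.21 (edgeR adjusted p = 0.000175) and −1.07 ± 0.21. Its partner Rpl22 went from 873.8, 949.9 and 930.3 to 755.9, 760.2 and 723.8 CPM in 14559TN, and from 913.5, 878.1 and 901.8 to 635.9, 709.5 and 602.5 CPM in 13TN. Both clones had separate groups for Rpl22, but only 13TN passed the test, at −0.47 ± 0.12 (edgeR adjusted p = 0.00226) against −0.30 ± 0.12 in 14559TN (adjusted p = 0.0516). The difference between Rpl22l1 and Rpl22 was not tested.

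Rps27l, a p53 target in human cells, had 149.5, 149.0 and 172.4 CPM untreated and 61.6, 84.0 and 75.1 CPM treated in 14559TN. It fell by 1.09 ± 0.14 there (edgeR adjusted p = 2.52e-07) and by 0.81 ± 0.14 in 13TN. Its partner Rps27 was seen at 1.26 to 10.3 CPM over all libraries and was not called in any response. Rpl36al had 17.5, 16.3 and 17.6 CPM untreated and 6.25, 6.06 and 6.00 CPM treated in 14559TN, at −1.49 ± 0.28, and both groups were narrow and apart. In 13TN it did not pass the test, at −0.37 ± 0.26 (edgeR adjusted p = 0.301).

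Rpl7l1, a paralogue of Rpl7 found in large-subunit precursors of human cells, had values of either sign. It had 63.0, 61.7 and 76.0 CPM untreated and 88.7, 88.6 and 84.3 CPM treated in 2646TN, where the treated tumours were higher without overlap but the value of 0.38 did not pass the test (edgeR adjusted p = 0.121). In 13TN it went from 88.4, 93.0 and 102.1 to 63.1, 69.2 and 65.0 CPM, at −0.52 ± 0.14, and in 14559TN it was called at −0.42 ± 0.14, a call lost without untreated replicate 3 or treated replicate 1, with an adjusted p of up to 0.151. Rpl7 itself was called in neither, at −0.09 in 14559TN.

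The members that fell in 14559TN and those that fell in 13TN, clones with no library in common, overlapped. They shared 37 genes, or 78.7% of the 47 called in 14559TN and 86.0% of the 43 called in 13TN. Over all tested genes the lists shared 1502 genes, or 70.7% and 65.0% of them, and 11.3% of all tested genes were called lower in both. Over all 80 members Spearman's rho between the log2 fold changes of the clones was 0.39, and over the 34 members of at least 100 CPM it was 0.81. These are descriptions over genes measured in the same libraries within each clone. In 17 members the fall was called in 2646R too, among them Rpl22l1, Rpl23, Rpl34, Rpl35a, Rpl38, Rpl4, Rplp2, Rps15, Rps15a, Rps18, Rps19, Rps2, Rps21, Rps3 and Rps9. In 24 of the 80 no fall was called in any of these 3 clones. No share over all tested genes is given for the 3 clones together, so the 17 and the 24 describe the members only.

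**Figure D4:**
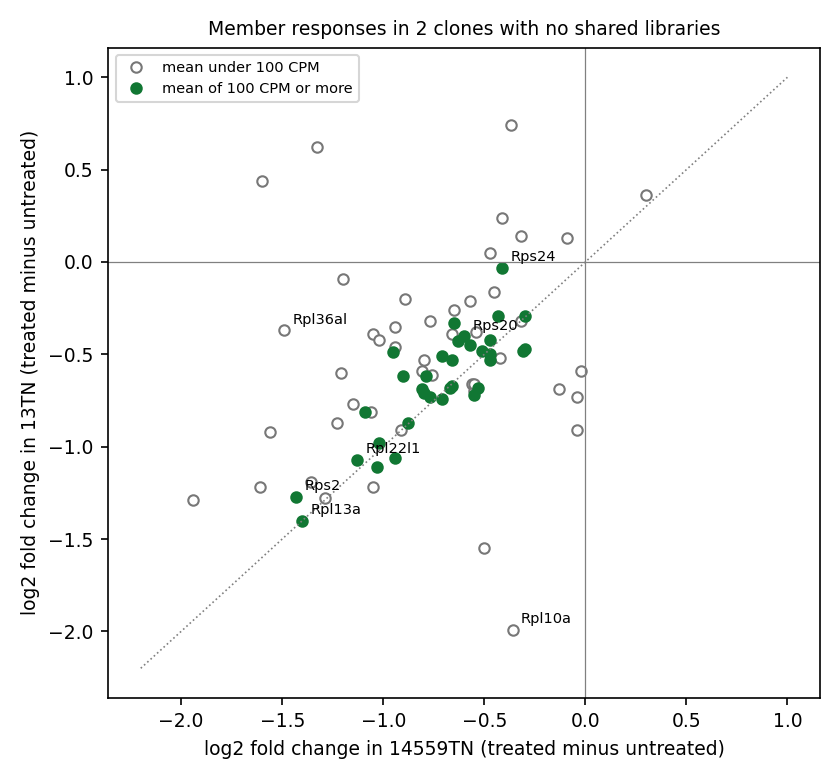
Log2 fold change (treated minus untreated) of the 80 tested members in 14559TN (horizontal) and 13TN (vertical), with members of at least 100 CPM marked apart. Spearman's rho is 0.39 over all and 0.81 over the 34 marked members, and 37 members were called lower in both.

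The largest called values in 2646R rested in part on 1 library. Rps16 had 56.8, 13.3 and 13.1 CPM untreated and 5.86, 4.45 and 7.34 CPM treated, at −2.25 ± 0.56 (edgeR adjusted p = 0.00516). Untreated replicate 1 was far above the other two, and without it the value was −1.12 and missed the threshold (adjusted p = 0.146). The same library was needed for the calls of Rps4x (−2.45 with it, −1.23 without it), Rpl23 (−1.05 and −0.80), Rpl35a (−1.05 and −0.82) and Rps24 (−1.01 and −0.87). Without it none of these passed the threshold, with adjusted p-values of 0.209, 0.0661, 0.079 and 0.0696. Leaving out treated replicate 2 also ended the calls of Rpl23, Rpl35a and Rps24, and leaving out untreated replicate 3 ended that of Rps24.

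Between untreated 2646R and untreated 2646TN, the called members were mostly higher in 2646R. There 24 of 80 members were higher in 2646R and 1 was lower, with a median log2 difference of 0.33, where 18.3% of all genes were higher and 18.4% lower. The higher members made 30.0% of those tested and the lower 1.25%. Taken in both directions, members were not called more often than all genes. The count was 12 in both directions without untreated replicate 1 of 2646R, and no share of all genes is given for that fit. Macrophage, endothelial and erythroid markers were lower in untreated 2646R. The 10 macrophage markers summed to 28.2 to 59.0 CPM against 139.6 to 233.7 CPM, with 5 of 9 tested called lower. The 6 endothelial markers summed to 9.23 to 16.7 against 45.8 to 53.6 CPM, with 3 of 5 called, and the 5 erythroid markers to 61.5 to 203.2 against 227.8 to 886.2 CPM, with 2 of 4 called. Fibroblast sums overlapped, at 1436.5 to 2949.6 against 1831.1 to 2335.2 CPM. Of the keratinocyte markers, Krt1 was at 0 in all 30 libraries, Krt5 in 29 and Krt14 in 28, so their sum is nearly Krt10 alone. This sum was 11.5 to 12.6 CPM in untreated 2646R against 3.6 to 6.86 CPM in untreated 2646TN. The part of all these markers in the member values was not tested. Rps2 had 833.1, 549.0 and 731.2 CPM in untreated 2646R and 325.5, 261.5 and 178.0 CPM in untreated 2646TN, a log2 difference of 1.47 ± 0.33 (edgeR adjusted p = 0.00132). Rpl30, which in yeast binds its own transcript, had 286.3, 125.7 and 160.6 CPM against 57.7, 49.6 and 21.4 CPM, at 2.17 ± 0.56 (edgeR adjusted p = 0.00435). The groups were apart for both, and both calls held without untreated replicate 1 of 2646R, at 1.33 (adjusted p = 0.00812) and 1.75 (adjusted p = 0.0304).

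Further members were higher in untreated 2646R. Rps3a1 was higher by 1.64 ± 0.37, Rplp2 by 1.07 ± 0.22 and Rpl22l1 by 0.88 ± 0.21 on the log2 scale, and these calls held without untreated replicate 1, at 1.17, 0.81 and 0.90. Rps16, at 1.97 ± 0.55, and Rplp0, at 0.38 ± 0.12, missed the threshold without that library, at 0.88 (adjusted p = 0.2) and 0.26 (adjusted p = 0.114). The lower member was Rpl37a, at −0.35 ± 0.14 (edgeR adjusted p = 0.0409), whose call was lost without untreated replicate 3 of 2646TN or without any of the untreated 2646R libraries, with an adjusted p of up to 0.171. Under treatment 3 members were higher and 1 lower, where 10% and 10.1% of all genes were. Rpl32, a large-subunit protein, was higher by 0.56 ± 0.14 (edgeR adjusted p = 0.00391), with 1617.6, 2132.2 and 1691.4 CPM in 2646R against 1086.1, 1260.8 and 1344.7 CPM in 2646TN, and these groups did not overlap. The count was 1 without treated replicate 2 of 2646R and 2 without its treated replicate 1.

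The pair 14559R and 14559TN differed under treatment. In treated tumours 54 of 80 members were higher in 14559R and 0 were lower, with a median log2 difference of 0.83, where 26.6% of all genes were higher and 22.7% lower. These made 67.5% of the tested members and included all 34 with at least 100 CPM, a level for which no share of all genes is given. This comparison uses the treated 14559TN libraries that also enter the response of 14559TN. Rpl13a had 194.1, 208.8 and 280.8 CPM in treated 14559R against 87.2, 67.7 and 77.1 CPM in treated 14559TN, at 1.56 ± 0.16 (edgeR adjusted p = 1.37e-09). Rpsa was higher by 1.58 ± 0.23, Rps2 by 1.55 ± 0.33, Rpl22l1 by 1.55 ± 0.21, Rpl36al by 1.72 ± 0.28, Rps3 by 0.99 ± 0.13 and Rplp0 by 0.97 ± 0.12, and each of these calls held when each library was left out in turn.

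In untreated tumours of this pair 6 members were higher in 14559R and 0 lower, with a median of 0.09, where 12.9% of all genes were higher and 11.2% lower. A fit of only these groups called 14 members higher and 2 lower. Rpl34 was higher by 0.61 ± 0.14 (edgeR adjusted p = 0.00143) and kept its call under every leave-out. Rpl22l1 was higher by 0.65 ± 0.21 (edgeR adjusted p = 0.022), a call lost without untreated replicate 2 of 14559TN or untreated replicates 1 or 3 of 14559R, with an adjusted p of up to 0.122. The count fell to between 1 and 3 without untreated replicates 1, 2 or 3 of 14559TN or untreated replicates 1 or 2 of 14559R.

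The differences of the responses themselves were tested. In 14559R minus 14559TN, 22 of 80 members had a higher value and 0 a lower one, with a median of 0.68, where 7.93% of all genes were higher and 4.08% lower, and the called members made 27.5% of those tested. Rplp0 differed by 0.91 ± 0.17 (edgeR adjusted p = 0.000361), Rpl13a by 1.15 ± 0.22 (adjusted p = 0.000412), Rpl32 by 1.16 ± 0.20 (adjusted p = 0.000107) and Rpl36al by 1.85 ± 0.38 (adjusted p = 0.00105), all kept in every leave-out. The count was 14 without treated replicate 3 of 14559TN or without treated replicate 3 of 14559R. In 2646R minus 2646TN, 13 members had an unadjusted p under 0.05 (edgeR), a count given without the share of all genes at that threshold. By adjusted p, 0 members were higher and 1 lower, Rplp2, with a median of −0.23, where 1.78% of all genes were lower and 2.36% higher. Its value of −1.10 ± 0.31 (edgeR adjusted p = 0.0401) lost its call in 7 of 12 leave-outs, those of untreated replicates 1 and 3 and treated replicates 1 and 2 of 2646TN and of untreated replicate 1 and treated replicates 1 and 2 of 2646R, with an adjusted p of up to 0.143.

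The response of 2646TN was also set against those of the other TN clones. In 14559TN minus 2646TN, 20 of 80 members were lower and 0 higher, with a median of −0.61, where 8.87% of all genes were lower and 5.19% higher. In 13TN minus 2646TN, 13 were lower and 0 higher, with a median of −0.42, where 9.54% of all genes were lower and 5.42% higher. Both comparisons use the 2646TN libraries. Rplp0 differed by −0.78 ± 0.17 in each, Rpl41, a very short large-subunit protein, by −1.07 ± 0.26 and −1.04 ± 0.26, and Rpl7l1 by −0.80 ± 0.20 and −0.90 ± 0.19. Rpl13a differed by −1.03 ± 0.22 in 13TN minus 2646TN.

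Before treatment few members were called between the TN clones, and the counts moved with the settings. Between untreated 2646TN and 13TN 7 of 80 were called, where 16.2% of all genes were, and between untreated 14559TN and 13TN only Rpl7l1 was called, where 11.2% of all genes were. Between untreated 2646TN and 14559TN 2 were called, where 18.9% of all genes were. Without the low-count filter the counts were 17, 2 and 10, and in fits of only the groups compared they were 10, 2 and 16. Rps19 was higher in untreated 2646TN than in untreated 13TN, at 0.84 ± 0.19, with 1189.7, 1015.2 and 1259.1 CPM against 687.8, 601.0 and 641.8 CPM, and kept this call in every leave-out. Rpl7l1 was lower in untreated 14559TN than in 13TN, at −0.56 ± 0.14 (edgeR adjusted p = 0.00576), with 61.4, 61.5 and 69.6 CPM against 88.4, 93.0 and 102.1 CPM. The counts moved with single libraries: 2646TN against 13TN gave 14 without untreated replicate 1 and 1 without untreated replicate 3 of 13TN, and 3, 4, 3 and 3 without untreated replicates 1, 2 or 3 of 2646TN or 2 of 13TN. Likewise 2646TN against 14559TN gave 1, 1, 4 and 0 without untreated replicate 3 of 2646TN and untreated replicates 1, 2 and 3 of 14559TN, and 14559TN against 13TN gave 2 without untreated replicate 1 of 13TN.

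**Figure D5:**
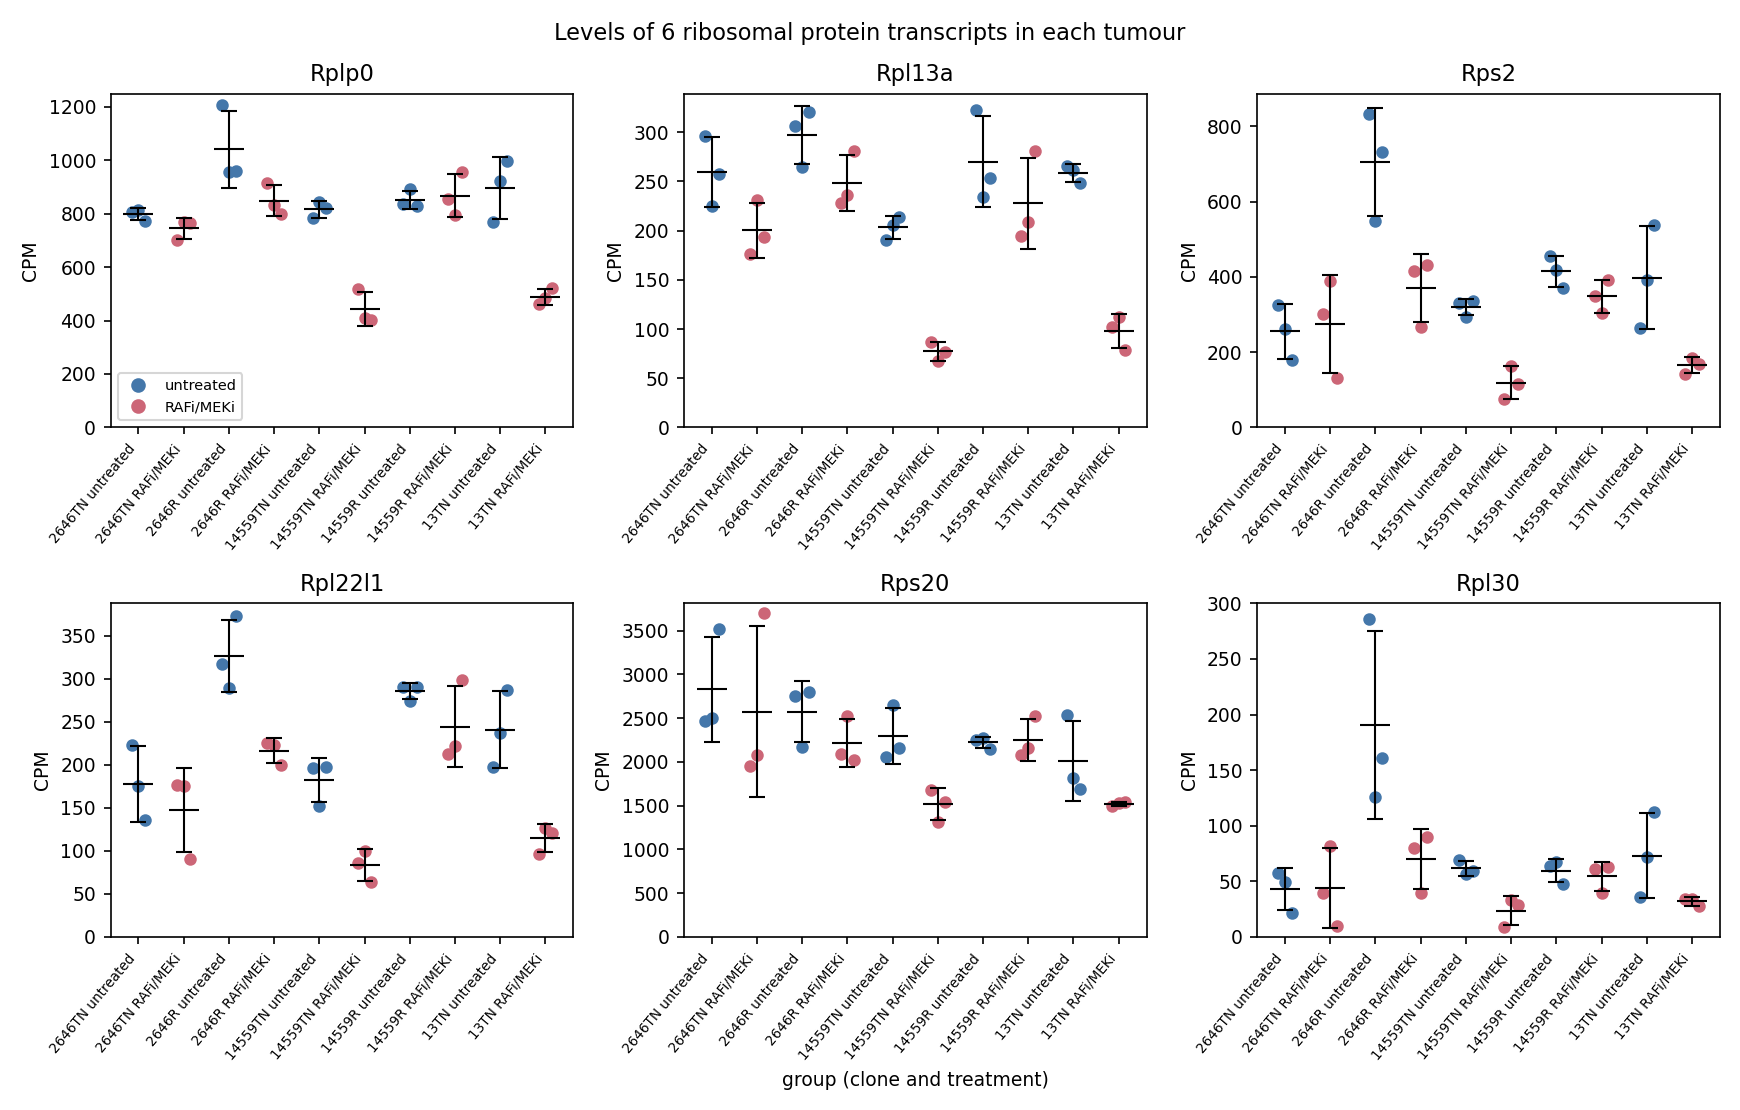
CPM of Rplp0, Rpl13a, Rps2, Rpl22l1, Rps20 and Rpl30 in each of the 30 tumours, by clone and treatment, each axis starting at 0. The treated tumours of 14559TN and 13TN lie below the untreated ones for Rplp0, Rpl13a, Rps2, Rpl22l1 and Rpl30. Untreated 2646R has the highest group mean for each of these genes, but not for Rps20.

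The libraries that stood apart are visible in single members. Rps20 had 2466.0, 2496.9 and 3521.4 CPM in untreated and 1951.5, 2074.3 and 3695.3 CPM in treated 2646TN, with both libraries numbered 3 high. In the same libraries Rpl30 was low, at 57.7, 49.6 and 21.4 CPM untreated and 39.2, 81.8 and 10.3 CPM treated. With both left out, 0 members were called in the response of 2646TN, an alternative chosen after the data were seen.

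Other genes of the translation machinery fell with the members in 14559TN and 13TN. Of the ribosomal proteins that carry other names, Rack1, a scaffold on the small subunit, fell by 0.90 ± 0.11 in 14559TN and by 0.89 ± 0.11 in 13TN, while Fau passed in neither. Of 14 tested elongation factors and other TOP messengers, 8 fell in 14559TN and 9 in 13TN, among them Eef1b2 (−0.71 and −0.78) and Eef1g (−0.86 and −1.06), both parts of the exchange factor that recharges elongation factor 1A. Of 20 initiation genes, 15 and 16 fell, among them Eif4ebp1, the inhibitor of the cap-binding factor, at −1.41 ± 0.19 and −2.09 ± 0.19, and Eif5a, which relieves stalled ribosomes, at −1.57 and −1.13. Of 74 mitochondrial ribosomal protein genes, which serve the organelle's own ribosome, 32 and 29 fell, among them Mrpl34 (−1.04 and −0.96). No gene of these lists rose in either clone. Of all tested genes, 16% fell and 12.4% rose in 14559TN, and 17.4% fell and 13.6% rose in 13TN.

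Ribosome assembly genes and hosts of small nucleolar RNAs were called lower in 14559TN and 13TN as well. Of 26 assembly genes, 20 fell in 14559TN and 11 in 13TN, among them Ncl, the nucleolar protein nucleolin (−0.78 and −0.73). In 2646R 0 fell and 4 rose, among them Dkc1, the pseudouridine synthase (0.83 ± 0.19), and Heatr1 (0.52 ± 0.16). In 2646TN 3 rose, among them Wdr12 (0.76 ± 0.18). Of all tested genes, 16% fell in 14559TN and 17.4% in 13TN, 10.2% fell and 9.7% rose in 2646R, and 1.69% rose in 2646TN. In the response difference of 2646R minus 2646TN 0 of the 26 assembly genes were called, whereas in 14559TN minus 2646TN 22 were lower and in 13TN minus 2646TN 16 were lower. Of all tested genes 1.78%, 8.87% and 9.54% were lower in these differences, in that order. Of 9 snoRNA host genes, whose introns yield small nucleolar RNAs, 5 fell in 14559TN, 4 in 13TN and 4 in 2646R, where Gas5 changed by −1.12 ± 0.13 and Snhg1 by −1.07 ± 0.13. The hosts include Eef2, also counted among the TOP genes, and Rack1, also counted among the ribosomal proteins. Npm1 is counted among both the TOP and the assembly genes. The counts and medians of these lists are therefore not separate. The response difference of 2646R minus 2646TN was called lower for 3 snoRNA hosts, Gas5 (−1.08), Snhg1 (−1.16) and Snhg12 (−1.46), and for 3 initiation genes, Eif4ebp1 (−1.11), Eif1 (−0.79) and Eif3c (−0.65). In 2646R 5 initiation genes fell, with Eif4ebp1 at −1.42 ± 0.18, and 1 of 14 elongation and TOP genes fell, Eef1b2 at −0.32 ± 0.10. In 14559R none of these lists had a called gene. Median log2 values over the tested genes of a list in 14559TN were −0.57 for elongation and TOP genes, −0.84 for assembly, −0.52 for initiation, −0.90 for snoRNA hosts and −0.42 for mitochondrial ribosomal proteins, and in 13TN they were −0.51, −0.46, −0.63, −0.31 and −0.41. The median over all tested genes was 0.00 in both.

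Other quantities moved with treatment in the same libraries. Malat1, a nuclear RNA, made up 1.21% to 1.33% of a library in untreated 14559TN tumours and 1.76% to 2.40% in treated ones, and 1.22% to 1.32% and 2.71% to 3.50% in 13TN. In 2646R it made up 1.50% to 2.40% untreated and 1.25% to 1.6% treated. The summed level of 6 fibroblast markers was 3554.6 to 3982.0 CPM untreated and 5361.1 to 7698.3 CPM treated in 14559TN, and 1748.5 to 2140.4 and 4528.5 to 5548.3 CPM in 13TN. It was 1436.5 to 2949.6 and 5068.5 to 6397.1 CPM in 2646R, 1831.1 to 2335.2 and 2414.0 to 4514.4 CPM in 2646TN, and 6543.0 to 8632.1 and 7767.2 to 13580.3 CPM in 14559R. Of the 6 markers 4 rose in 14559TN and in 13TN, 2 in 2646R, 1 in 2646TN and 0 in 14559R, and Lum and Dpt were at 0 in 1 and 2 libraries. Of all tested genes 12.4% rose in 14559TN, 13.6% in 13TN, 9.7% in 2646R, 1.69% in 2646TN and 0.143% in 14559R, while 2.24% fell in 2646TN. The summed level of 10 macrophage markers was 139.6 to 233.7 CPM untreated and 26.6 to 60.3 CPM treated in 2646TN, where 5 of the 9 tested fell, and 28.2 to 59.0 and 98.4 to 115.3 CPM in 2646R, where 2 rose. It overlapped between untreated and treated tumours in the other 3 clones. The sum of 5 erythroid markers was 61.2 to 115.5 CPM untreated and 25.9 to 48.8 CPM treated in 14559TN, where 0 of the 4 tested were called (edgeR). The part of Malat1 and of these markers in the member values was not tested.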

How the data were processed

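Messenger RNA of 30 sorted tumour samples was measured with a 3′ kit. STAR 2.6.0c and featureCounts 1.6.2 were the tools of the authors, on GRCm38, per the submitters' processing notes. The deposited values are counts of reads per gene, and reads that mapped to several places or genes were left out, per the file headers. Of 54532 features, 53548 matched the span of a GENCODE vM21 gene.

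Counts were tested in R 4.3.3 with edgeR 4.0.16: filterByExpr by group (13286 genes), TMM factors, 1 robust quasi-likelihood fit of 10 groups with 20 residual degrees of freedom (biological coefficient of variation 18.2%). The p-values were adjusted by Benjamini and Hochberg's method across all of these genes, with calls under 0.05. A standard error is the size of the log2 fold change divided by the root of F. The fit was tested on simulated data. DESeq2 1.42.0 and the other alternatives are in the closing section. Genes were named by role or as the 5 highest and 5 lowest called members with at least 20 CPM, and list genes by smallest p; a few members are not reported by name here. Members and lists were chosen with earlier results of these data known. Figures were drawn with matplotlib 3.10.9.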

Additional observations from a re-analysis of the deposited data

Results flagged for a closer look

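Responses to treatment that differed between clones by a test of the difference itself (edgeR, adjusted over all genes) are given here as log2 values. In 14559R minus 14559TN, 22 members differed, all higher: Rpl39 by 0.61, Rps3 by 0.74, Rplp1 by 0.77, Rpl22l1 by 0.90, Rplp0 by 0.91, Rps26 by 0.92, Rps27l by 0.97, Rpsa by 1.07, Rplp2 by 1.12, Rpl13a by 1.15, Rpl32 by 1.16, Rpl18 by 1.31 and Rpl36al by 1.85 among the named ones. Leaving out 1 library ended the call of Rpl22l1 in 8 of 12 cases, all but untreated and treated replicate 2 of 14559TN and treated replicates 1 and 2 of 14559R (adjusted p up to 0.141 by edgeR). It ended that of Rpsa in 7 of 12, all but untreated and treated replicate 1 of both clones and treated replicate 2 of 14559R (up to 0.0887), and that of Rpl39 without treated replicate 3 of 14559TN or untreated replicate 1 of 14559R (up to 0.0679).

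In 14559TN minus 2646TN, 20 members differed, all lower. The named ones were Rps2 at −1.53, Rpl36al at −1.31, Rpsa at −1.29, Rpl5 at −1.18, Rplp2 at −1.16, Rpl41 at −1.07, Rps27l at −1.06, Rpl7l1 at −0.80, Rplp0 at −0.78, Rplp1 at −0.71 and Rps26 at −0.54. In 13TN minus 2646TN, 13 members differed, all lower, with Rps2 at −1.37, Rplp2 at −1.29, Rps25 at −1.14, Rpl41 at −1.04, Rpl13a at −1.03, Rpl7l1 at −0.90, Rplp0 at −0.78 and Rps27l at −0.77. Both comparisons share the 2646TN libraries. In the first, leaving out 1 of 12 libraries ended the call of Rps2 in 8 cases, all but untreated replicate 1 and treated replicate 3 of 2646TN and both replicates numbered 2 of 14559TN (adjusted p up to 0.104 by edgeR). It ended that of Rpl5 in 7, all but untreated replicates 2 and 3 and treated replicate 3 of 2646TN and both replicates numbered 2 of 14559TN (up to 0.131), and that of Rps26 in 8, all but untreated replicate 1 and treated replicates 1 and 3 of 2646TN and treated replicate 1 of 14559TN (up to 0.114). In the second it ended that of Rps2 in 9, all but untreated replicate 1 and treated replicate 3 of 2646TN and untreated replicate 1 of 13TN (up to 0.169). In 2646R minus 2646TN, 1 member differed, Rplp2 at −1.10.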

How the results depend on the processing

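No paired analysis was possible because every tumour has its own code and no replicate number is shared between groups in the labels.

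Of 136 called values of named members, 75 kept their call under every alternative run, 106 under every alternative other than leaving out 1 library, and 0 changed sign. Scaling with median-of-ratios factors, or with TMM factors computed without the members, changed no count by over 1.5 times.

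Without the low-count filter 2 members were called in the response of 2646TN, 2 in 14559R, 10 in the difference 2646R minus 2646TN, 20 in 13TN minus 2646TN, 17 in untreated 2646TN against 13TN, 2 in 14559TN against 13TN and 10 in 2646TN against 14559TN. DESeq2 called 1 in the response of 2646TN and 4 in untreated 2646TN against 14559TN. Fits of only the groups compared called 1 in treated 2646R against 2646TN, 16 in untreated 14559R against 14559TN (14 higher and 2 lower), 0 in the difference 2646R minus 2646TN (where the main test called 1), 2 in untreated 14559TN against 13TN and 16 in 2646TN against 14559TN. With counts of annotated copies added, the median of 2646R was −0.28 and 3 members were called in untreated 14559R against 14559TN. With both 2646TN libraries numbered 3 left out, 3 were called in untreated 2646TN against 13TN and 1 in 2646TN against 14559TN. The cause of these shifts was not tested.

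Leaving out 1 library gave these ranges. Response counts ran from 32 to 42 for 14559TN (median −0.71 to −0.63), from 26 to 38 for 13TN (−0.57 to −0.51), from 3 to 23 for 2646R (−0.37 to −0.21), from 0 to 2 for 2646TN (−0.22 to −0.04) and stayed 0 for 14559R (−0.15 to 0.01). Counts of 2646R against 2646TN were 12 to 27 untreated and 1 to 5 treated, and those of 14559R against 14559TN 1 to 5 and 42 to 49. Response differences gave 0 to 5 (2646R minus 2646TN), 14 to 22 (14559R minus 14559TN), 14 to 23 (14559TN minus 2646TN) and 9 to 14 (13TN minus 2646TN). The untreated TN clones gave 1 to 14 (2646TN against 13TN), 1 to 2 (14559TN against 13TN) and 0 to 4 (2646TN against 14559TN).

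Signs turned 22 times, 19 of them with 1 library left out, and 0 of the values concerned were called. With copies added Rpl10 was at −0.02 in 2646TN and −0.08 in 13TN, and with both libraries numbered 3 left out Rps27l was at 0.15 in 2646TN. With 1 library left out, responses in 2646TN spanned −0.68 to 1.13 (Rpl10), −0.43 to 0.00 (Rpl22l1), −0.06 to 0.19 (Rplp1) and −0.14 to 0.33 (Rpsa). Other responses spanned −0.22 to 0.29 (Rpl3, 2646R), −0.85 to 0.36 (Rps27, 14559TN), −0.34 to 0.15 (Rpl11, 13TN) and −0.53 to 0.01 (Rpl36al, 13TN). Values of 2646R against 2646TN spanned −0.13 to 0.14 (Rps14, untreated), −1.48 to 0.74 (Rpl10, treated) and −1.05 to 0.09 (Rps4x, treated). Untreated 14559R against 14559TN spanned −0.12 to 0.21 (Rpl7) and −0.36 to 0.75 (Rps27), 14559TN against 13TN −0.43 to 0.03 (Rplp2) and −0.72 to 0.39 (Rps27), and 2646TN against 14559TN −0.03 to 0.14 (Rpl22). Response differences spanned −0.09 to 0.17 (Rps26) and −0.18 to 0.31 (Rpsa) for 2646R minus 2646TN, and −0.47 to 1.33 (Rpl10) for 13TN minus 2646TN.

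Rpl27, the member with the fewest counts, and the symbols left out of the members, such as Rps6 and Rpl24, had too few counts to be judged here. The cause of these low counts was not tested.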

Other observations

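Within groups, members deviated in opposite ways. Deviations of log2 CPM (offset 0.5) from the group means over 30 libraries were compared with those of Rps20, as a description. Of 79 other tested members, 19 had a correlation above 0.5 with Rps20, among them Rpl14 (0.90), Rpl13 (0.89), Rpl26 (0.88), Rplp1 (0.87) and Rpl8 (0.85). A further 15 were below −0.5, among them Rps18 (−0.79), Rps2 (−0.73), Rpl30 (−0.72), Rpl38 (−0.71) and Rpl35a (−0.70), and 45 lay between. Each set held genes of both subunits, and the points share libraries and scaling.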
